A study of Mus musculus with 2 samples.

Results

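Among mouse regulatory T (Treg) cells sorted by their MitoTracker signal, 766 of 23896 cells, called members here, are described against all other cells. Each member carried transcripts of at least 2 of the 4 genes Gbp2b, Adam12, Myo3b and Prg4. It also carried transcripts of at most 1 of Ccl5, Il10 and Klrg1. MitoTracker is a fluorescent dye that accumulates in mitochondria. Treg cells labelled with it were separated by flow cytometry into a dye-high population, Mito-high, and a dye-low population, Mito-low. Each population gave 1 library on the 5′ chemistry, version 2, of 10x Genomics, with 12000 cells loaded. The labels give the cell type of both groups as regulatory T cells and name no genotype, allele, treatment, strain, age or tissue for either of them. Both groups are therefore sorted populations that differ, as far as the labels say, in dye signal alone.

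A barcode was kept as a cell with at least 500 detected genes and at most 20% of its unique molecular identifiers (UMIs, each standing for 1 captured RNA molecule) from mitochondrially encoded (mt-) genes. A member had a UMI of at least 2 of the 4 genes named above and of at most 1 of the 3 genes Ccl5, Il10 and Klrg1. The rule found 292 members among 12217 kept Mito-high cells, a share of 2.39% (95% exact Clopper-Pearson interval 2.13 to 2.68). It found 474 members among 11679 kept Mito-low cells, a share of 4.06% (3.71 to 4.43). The rule reads measured UMIs, so these shares, the levels of the 7 genes of the rule and any contrast built on them describe how the cells were chosen and support nothing further.

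Treg cells restrain other immune cells and depend on the transcription factor Foxp3. Activated Treg cells in tissues take on homing receptors and transcription factors of the helper T cells that they restrain. In the gut, for example, many Treg cells carry the transcription factor c-Maf, encoded by Maf. CCR4 and CCR6 are receptors for chemokines, the attractant proteins that guide T cells into inflamed and barrier tissues. Of the 4 genes that chose the members, Gbp2b encodes a guanylate-binding protein, an interferon-induced GTPase of defence within the cell. Adam12 encodes a membrane-bound metalloprotease and disintegrin, Myo3b a class III myosin best known from sensory cells, and Prg4 the secreted lubricant lubricin.

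The 4 genes lie on different chromosomes in the GRCm38 annotation, the build of the mm10 genome named in the submitters' processing notes. Gbp2b (ENSMUSG00000040264) spans chr3:142594847-142619179 on the plus strand and Adam12 (ENSMUSG00000054555) chr7:133883199-134232146 on the minus strand. Myo3b (ENSMUSG00000042064) spans chr2:70039126-70429198 on the plus strand and Prg4 (ENSMUSG00000006014) chr1:150449412-150466165 on the minus strand. All 4 are protein-coding. Between 0% of the 50-base stretches of the annotated transcripts of Prg4 and 3.59% of those of Myo3b also occur in transcripts of another gene, and the 1.84% of Gbp2b are shared with its neighbour in sequence, Gbp2. Gbp2 itself differed little between members and other cells, with log2 ratios of 0.35 among Mito-high and 0.39 among Mito-low cells.

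No promoter sequence was available for Adam12, Prg4 or Maf. The promoters of Gbp2b, Myo3b and Ccr4 are shown. Each is the 300-base stretch from 250 bases before to 50 bases after the start of the gene in RefSeq, GRCm38.p6, read 5′ to 3′ on the strand of the gene. Capitals mark matches to the AP-1 motif TGANTCA and, on either strand, to the interferon-stimulated response element, searched as GAAA, any 2 bases and GAAA. The Gbp2b promoter lies at chr3:142594597-142594896 on the plus strand, the Myo3b promoter at chr2:70038876-70039175 on the plus strand and the Ccr4 promoter at chr9:114496495-114496794 on the minus strand.
Gbp2b: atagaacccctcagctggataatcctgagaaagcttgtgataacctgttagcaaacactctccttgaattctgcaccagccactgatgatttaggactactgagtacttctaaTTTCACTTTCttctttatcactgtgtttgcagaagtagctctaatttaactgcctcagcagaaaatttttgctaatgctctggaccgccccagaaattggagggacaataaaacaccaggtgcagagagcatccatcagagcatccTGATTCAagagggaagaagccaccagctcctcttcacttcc
Myo3b: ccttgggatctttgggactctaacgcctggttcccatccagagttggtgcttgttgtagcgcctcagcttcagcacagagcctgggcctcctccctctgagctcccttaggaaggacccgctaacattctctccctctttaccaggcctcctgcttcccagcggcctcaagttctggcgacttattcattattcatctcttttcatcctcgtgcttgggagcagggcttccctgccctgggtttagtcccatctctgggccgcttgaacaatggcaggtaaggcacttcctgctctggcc
Ccr4: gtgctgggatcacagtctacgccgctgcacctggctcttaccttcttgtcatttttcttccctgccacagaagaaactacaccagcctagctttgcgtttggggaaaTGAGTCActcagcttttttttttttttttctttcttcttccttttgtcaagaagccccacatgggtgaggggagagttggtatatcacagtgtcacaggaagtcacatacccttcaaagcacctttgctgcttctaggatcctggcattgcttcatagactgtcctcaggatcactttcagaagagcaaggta
The Gbp2b promoter holds an interferon-stimulated response element that begins at position -137 relative to the start site, and an AP-1 match at position 9. The Ccr4 promoter holds an AP-1 match at position -143, and the Myo3b promoter holds neither motif. Of 32851 RefSeq promoters of the same length, 7.81% hold the AP-1 motif and 3.44% the interferon-stimulated response element on either strand. Of 5 further motifs searched on both strands, the Gbp2b promoter holds the E-box CAGCTG (16.3% of promoters) and the ETS motif GGAAGT (23.8%), and the Myo3b and Ccr4 promoters hold the ETS motif only. None of these 3 promoters holds the forkhead motif TGTTTAC (3.65%), the Maf recognition core TGCTGAC (4.67%) or the interferon gamma activated site TTCNNNGAA (8.30%). A match is a match of letters and not a bound site.

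The libraries differed in depth, with a median per kept cell of 6132 UMIs for Mito-high, against 4668 for Mito-low. The Mito-high library held 12352 barcodes, more than the 12000 cells given as loaded. The libraries shared 38 barcodes, 35 of them kept, and none of the shared barcodes was a member in both libraries. A B cell-like group of 22 Mito-high cells and 1 Mito-low cell contained 0 members. Each group is 1 library without a replicate, so no test is given, intervals cover counting error only, and "higher" and "lower" describe these libraries.

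Members were the deeper cells of each library. Their median was 7596 UMIs and 2428.5 genes per cell in the Mito-high library, against 6104 UMIs and 1999 genes in other cells. In the Mito-low library members had a median of 5278 UMIs and 1986 genes, against 4644 UMIs and 1806 genes in other cells. With all cells thinned to 2000 UMIs, the median number of genes was 1005 in members and 949 in other Mito-high cells, and 1034 in members and 1029 in other Mito-low cells. The mt share of UMIs was alike, at a median of 3.44% in members and 3.32% in other Mito-high cells, and 2.97% in members and 3.18% in other Mito-low cells. Sums over members rest on 2842400 Mito-high and 2875471 Mito-low UMIs.

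The rule asks for detected UMIs, and the share of members was larger in deeper cells. In the Mito-high library it was 0.866% of cells under 3000 UMIs, 1.47% of cells with 4000 to 5000 UMIs, 2.30% of cells with 6000 to 8000 UMIs and 5.42% of cells with 12000 UMIs or more. In the Mito-low library the shares in these bins were 2.01%, 4.23%, 5.07% and 8.28%. In each of the 7 bins the Mito-low share was above the Mito-high share, although Mito-low cells were the shallower ones overall. With every cell thinned to 2000 UMIs the rule found 73 of 12078 Mito-high cells, or 0.604% (0.474 to 0.759), and 166 of 11188 Mito-low cells, or 1.48% (1.27 to 1.73). Cells of fewer UMIs dropped out of the thinned sets, 139 of them Mito-high, with 1 member, and 491 Mito-low, with 7 members.

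**Figure D1:**
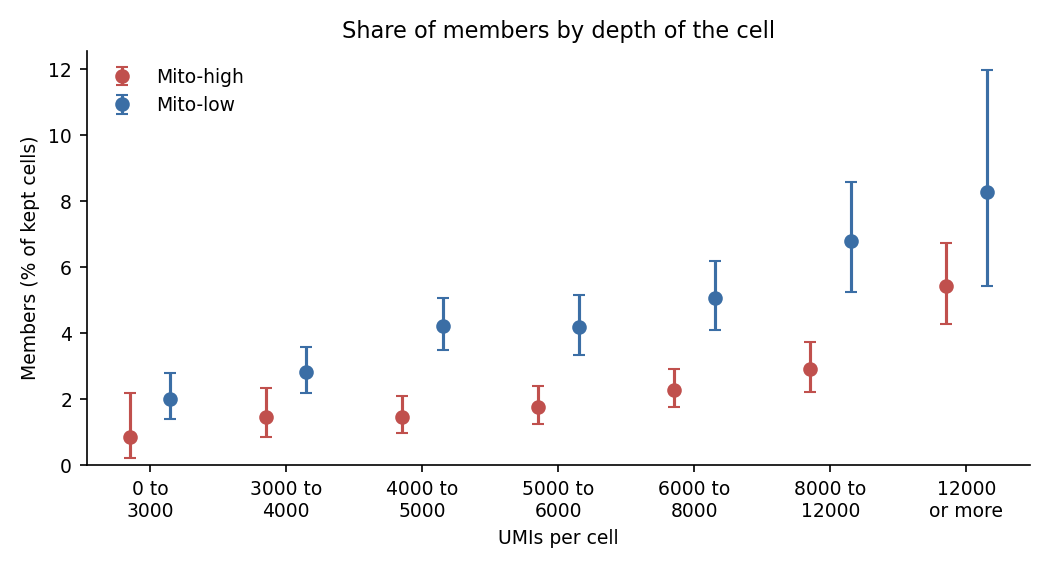
Share of members among kept cells (vertical axis, percent) in 7 bins of UMIs per cell (horizontal axis) for the Mito-high and Mito-low libraries. Bars are 95% exact Clopper-Pearson intervals. The Mito-low share lies above the Mito-high share in every bin, from 2.01% against 0.866% in the shallowest to 8.28% against 5.42% in the deepest.

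Most members stood just inside the threshold. Of the Mito-high members 247 had 2 of the 4 genes, 37 had 3 and 8 had all 4, and of the Mito-low members 394, 71 and 9 did. Just outside it, 1 of the 4 genes was found in 16.7% of the kept Mito-high cells and in 28.2% of the kept Mito-low cells, and none in 80.9% and 67.3%. The limit on Ccl5, Il10 and Klrg1 left out 6 of the 298 Mito-high cells with at least 2 of the 4 genes, and 49 of the 523 such Mito-low cells. A UMI of 1 of these 3 genes was still found in 20.2% of the Mito-high members and 35.2% of the Mito-low members. The limit thus bore more on the Mito-low library, in whose other cells Ccl5 had 354 CPM, against 24.0 CPM in those of the Mito-high library, where CPM stands for UMIs per 1000000 of the UMIs summed over a group of cells.

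The 4 genes did not contribute alike. Myo3b was detected in 88.4% of Mito-high and 92.4% of Mito-low members, against 11.4% and 24.1% of other cells. Prg4 was detected in 62.0% of Mito-high and 48.7% of Mito-low members, Adam12 in 42.5% and 48.1%, and Gbp2b in 25.3% and 29.5%. Outside the members Gbp2b was the rarest, at 0.394% in the Mito-high library and 0.509% in the Mito-low one. The most frequent combinations were Myo3b with Prg4 alone, in 115 Mito-high and 144 Mito-low members, and Myo3b with Adam12 alone, in 75 and 154. Members without any UMI of Gbp2b or Adam12 were thus 39.4% of the Mito-high and 30.4% of the Mito-low members, which the name given to these cells does not show. In sums, Gbp2b had 48.9 CPM in members and 0.724 CPM in other Mito-high cells, and 85.2 CPM in members and 1.49 CPM in other Mito-low cells.

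Over all kept cells, whether members or not, the 4 genes were detected together more often than in cells that lacked one of them. Adam12 was detected in 17.4% (11.1 to 25.3) of the 121 Mito-high cells with Gbp2b and in 2.24% of those without it. In the Mito-low library Adam12 was detected in 20.3% (14.9 to 26.6) of the 197 cells with Gbp2b and in 4.45% of those without it. Cells with Gbp2b were also deeper, at a median of 7077 against 6123 UMIs in Mito-high and 5256 against 4661.5 in Mito-low cells. In cells thinned to 2000 UMIs the shares were 11.1% (4.19 to 22.6) with Gbp2b and 0.790% without it in Mito-high cells, and 7.92% (3.48 to 15.01) and 2.53% in Mito-low cells. Prg4 followed the same order, at 18.5% of thinned Mito-high cells with Gbp2b and 2.10% without it, and at 17.8% and 2.20% in the Mito-low library. Myo3b, the most frequent of the 4, was detected in 9.26% (3.08 to 20.3) of thinned Mito-high cells with Gbp2b and 4.67% without it, and in 38.6% and 13.7% of those of the Mito-low library.

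The label of the sort was checked on Treg and other lineage genes. Foxp3, the defining transcription factor of Treg cells, had 34.8 CPM in members and 25.5 CPM in other Mito-high cells, and 48.7 CPM in members and 40.6 CPM in other Mito-low cells. Thinned to 2000 UMIs, 4.47% of Mito-high members and 5.13% of other Mito-high cells had a Foxp3 UMI, as did 9.21% of Mito-low members and 7.86% of other Mito-low cells. Ctla4, an inhibitory receptor of Treg cells, was detected in 97.9% of members and 91.5% of other Mito-high cells and in 96.6% and 93.1% of those of the Mito-low library. In the 22 B cell-like cells, of median depth 3134.5 UMIs, Foxp3 was found in 0, which allows a share of up to 13.6%, and Ctla4 in 22.7%.

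Helios, encoded by Ikzf2 and typical of thymus-derived Treg cells, and its relative Eos, encoded by Ikzf4, stood lower in members, past 1.5-fold in the Mito-low library alone. Ikzf2 had 1091 CPM in members and 1333 CPM in other Mito-high cells (log2 ratio -0.29, 95% interval -0.34 to -0.24), and 1161 CPM in members and 1936 CPM in other Mito-low cells (-0.74, -0.79 to -0.69). An Ikzf2 UMI was found in 66.1% of members and 83.5% of other Mito-high cells, and in 70.3% of members and 93.7% of other Mito-low cells, although members were the deeper cells. Thinned, these shares were 50.2% and 70.4%, and 57.4% and 87.1%. Ikzf4 had log2 ratios of -0.33 and -0.71. Il2ra, the high-affinity interleukin 2 receptor chain, had 216 CPM in members and 209 CPM in other Mito-high cells, and 242 CPM in members and 153 CPM in other Mito-low cells. Of 16 Treg identity genes tested, 1 was at least 1.5-fold higher and 2 lower in Mito-high members, and 3 were higher and 3 lower in Mito-low members, with medians of -0.12 and -0.06.

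Some defining markers of other lineages had 0 UMIs in members, while the sums over whole marker lists were above 0. Pax5 of B cells and Cd8a of CD8 T cells had 0 UMIs in the members of both libraries, as had 11 of 19 myeloid and dendritic cell markers and 6 of 9 erythroid and platelet markers. The 4 CD8 T cell markers summed to 6.68 CPM in members and 10.5 CPM in other Mito-high cells, and to 3.83 CPM in members and 6.14 CPM in other Mito-low cells. The 10 markers of gamma delta and invariant T cells summed to 6.68 CPM in members and 6.63 CPM in other Mito-high cells, and to 7.65 CPM in members and 6.50 CPM in other Mito-low cells. The 14 B cell markers summed to 342 CPM in members and 244 CPM in other Mito-high cells, most of it Ighm, which had 275 CPM in members and 146 CPM in other cells. Among Mito-low cells they summed to 392 CPM in members and 423 CPM in other cells. The 14 markers of NK and innate lymphoid cells, some of which activated T cells share, summed to 801 CPM in members and 691 CPM in other Mito-high cells, and to 1212 CPM in members and 1469.8 CPM in other Mito-low cells, and 5 of them were at 0 in all members. The 12 stromal and endothelial markers summed to 215 CPM in members and 181 CPM in other Mito-high cells. Among Mito-low cells these sums were 202 and 172 CPM. The 7 plasma cell markers summed to 61.2 and 47.2 CPM among Mito-high cells, and to 100 and 73.0 CPM among Mito-low cells. The 19 myeloid and dendritic cell markers summed to 99.2 and 86.2 CPM, and to 104 and 108 CPM, in the same order. The part of these transcripts in the results below was not tested.

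Genes were compared between members and other cells where the mean of the 4 sums, members and other cells of each library, was at least 20 CPM, which held for 5504 genes. In the Mito-high library 231 genes were at least 1.5-fold higher in members, or 4.2%, and 61 were at least 1.5-fold lower, or 1.11%. In the Mito-low library 120 genes were higher, or 2.18%, and 99 lower, or 1.8%. In both libraries 57 genes were higher, or 1.04%, and 17 lower, or 0.309%. With TMM factors, which moved the median ratio by -0.11 among Mito-high and -0.09 among Mito-low cells, 31 were higher and 28 lower. Genes named below that were then under 1.5-fold included Icos, Il18r1, Gbp3, S100a4, Lamc1, Atp2b1 and Myo1f in the Mito-low, Ikzf3, Cry1 and Gpr183 in the Mito-high and Iigp1 in both comparisons. The 57 genes are 24.7% of those higher in Mito-high and 47.5% of those higher in Mito-low members, and the 17 genes are 27.9% and 17.2% of those lower. These counts include genes of the rule: Gbp2b, Adam12, Myo3b and Prg4 among the 57, and Ccl5 among the 17. The median log2 ratio over all 5504 genes was 0.08 among Mito-high cells and 0.02 among Mito-low cells.

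**Figure D2:**
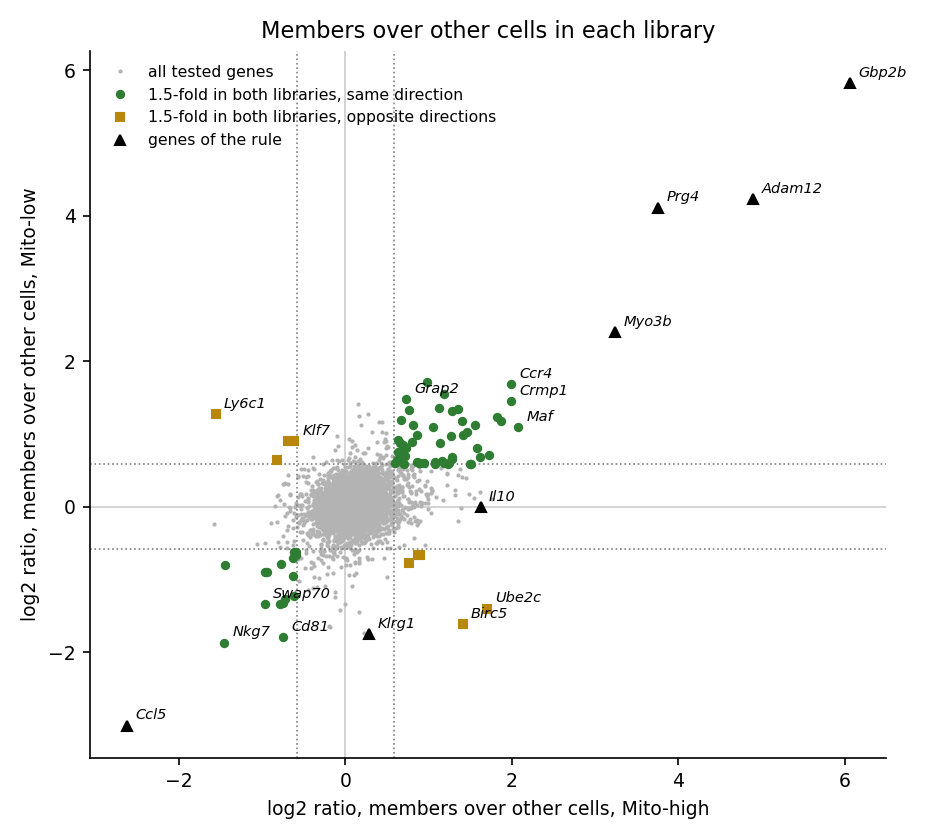
Log2 ratio of members over other cells for 5504 genes, Mito-high on the horizontal and Mito-low on the vertical axis, with dotted lines at 1.5-fold. Of the genes of the rule, drawn as triangles, the 4 that chose the cells and Ccl5 lie farthest out, Ccr4, Crmp1 and Maf are labelled among the 57 genes higher in both libraries, and 9 genes drawn as squares passed 1.5-fold in opposite directions.

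Receptors for chemokines were among the genes farthest above other cells. Ccr4, the receptor for CCL17 and CCL22, had 70.4 CPM in members and 17.8 CPM in other Mito-high cells (log2 ratio 1.99, 1.76 to 2.19), and 131 CPM in members and 41.0 CPM in other Mito-low cells (1.69, 1.52 to 1.84). A Ccr4 UMI was found in 34.6% of members and 8.33% of other Mito-high cells and in 40.5% of members and 13.8% of other Mito-low cells; after thinning these were 14.1% and 2.86%, and 22.5% and 7.14%. Since Ccr4 and Maf were picked as names of these cells from the same libraries, their levels are a description. Ccr2, the receptor for CCL2, had 35.5 CPM in members and 15.7 CPM in other Mito-high cells (1.19), and 103 CPM in members and 35.5 CPM in other Mito-low cells (1.54). Ccr6, the receptor for CCL20, had 33.8 CPM in members and 15.6 CPM in other Mito-high cells (1.13), and 39.3 CPM in members and 15.5 CPM in other Mito-low cells (1.35). All 3 receptors were higher in members of both libraries.

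The remaining homing receptors were mixed. Of 8 chemokine and homing receptors tested, 4 were at least 1.5-fold higher and 0 lower in Mito-high members, and 3 were higher and 2 lower in Mito-low members, with medians of 0.51 and 0.45. Gpr183, an oxysterol receptor that positions lymphocytes in lymphoid tissue, had log2 ratios of 0.66 and 0.53 in Mito-high and Mito-low members. Ccr8, typical of Treg cells in skin and tumours, had 20.1 CPM in members and 19.3 CPM in other Mito-high cells, but 21.6 CPM in members and 46.6 CPM in other Mito-low cells (-1.09).

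Of 14 transcription factors of effector T and Treg cells, Maf, Ahr and Ikzf3 were at least 1.5-fold higher in members of both libraries. Maf had 308 CPM in members and 73.2 CPM in other Mito-high cells (2.08, 1.97 to 2.18), and 625 CPM in members and 294 CPM in other Mito-low cells (1.09, 1.02 to 1.16). A Maf UMI was found in 71.9% of members and 23.3% of other Mito-high cells, and in 82.5% of members and 55.7% of other Mito-low cells. Ahr, the aryl hydrocarbon receptor, which senses dietary and microbial ligands, had 52.8 CPM in members and 21.8 CPM in other Mito-high cells (1.28), and 69.9 CPM in members and 43.8 CPM in other Mito-low cells (0.68). Ikzf3, which encodes Aiolos, had log2 ratios of 0.64 and 0.92. Prdm1, which encodes Blimp-1 of effector Treg cells, had 18.6 CPM in members and 7.42 CPM in other Mito-high cells (1.35), and 40.0 CPM in members and 29.8 CPM in other Mito-low cells (0.44). In all, 6 of the 14 were higher and 1 lower in Mito-high members, and 3 were higher and 4 lower in Mito-low members, with medians of 0.32 and -0.25.

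Tbx21, Gata3 and Bcl6, which direct other helper T cell lineages, were not at least 1.5-fold higher in members of either library. Tbx21, which encodes the T helper 1 factor T-bet, had 2.46 CPM in members and 2.40 CPM in other Mito-high cells, and 2.43 CPM in members and 20.8 CPM in other Mito-low cells (-2.91, -4.42 to -2.05). Gata3 had log2 ratios of -0.13 and -0.58, and Bcl6 of -0.32 and -0.23, both within 1.5-fold.

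Genes below 20 CPM were looked at after their values were seen, and 11 of them had at least 15 UMIs in the members of each library and were at least 4-fold higher there. Il23r, the interleukin 23 receptor, had 7.74 CPM in members and 0.907 CPM in other Mito-high cells (3.14, 2.34 to 3.79), and 13.6 CPM in members and 1.21 CPM in other Mito-low cells (3.5, 2.88 to 4.07). Ccl20, the ligand of CCR6, had 19.7 CPM in members and 0.597 CPM in other Mito-high cells (5.04, 4.47 to 5.62), and 8.0 CPM in members and 0.486 CPM in other Mito-low cells (4.05, 3.18 to 4.89). Ccl20 was found in 23 Mito-high members and 9 of 11925 other Mito-high cells, and in 15 Mito-low members and 17 of 11205 other Mito-low cells. An Il23r UMI was found in 4.45% of members and 0.335% of other Mito-high cells, and in 3.59% of members and 0.321% of other Mito-low cells, so that most members had none. Interleukin 17 transcripts were near 0, with 4 Il17a UMIs in all Mito-high members and 5 in all Mito-low members, and 1 and 2 of Il17f.

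Plac8, a small cysteine-rich protein of immune cells, was found in few members but with many UMIs in each. It had 44.7 CPM in members and 3.27 CPM in other Mito-high cells (3.78), and 25.04 CPM in members and 4.32 CPM in other Mito-low cells (2.55). The members' values came from 127 UMIs in 20 Mito-high members and 72 UMIs in 17 Mito-low members. Plac8 was also found in 11 of the 22 B cell-like cells of the Mito-high library, none of which was a member.

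Further genes higher in both libraries were Nt5e, Icos and Itgae. Nt5e, the ectoenzyme CD73 that makes adenosine, had 223 CPM in members and 80.9 CPM in other Mito-high cells (1.46), and 323 CPM in members and 158 CPM in other Mito-low cells (1.03). Icos, a costimulatory receptor of activated T cells, had 366 CPM in members and 155 CPM in other Mito-high cells (1.24), and 634 CPM in members and 418 CPM in other Mito-low cells (0.60). Itgae, the integrin CD103 of T cells at epithelia, had 54.9 CPM in members and 20.7 CPM in other Mito-high cells (1.41), and 120 CPM in members and 60.7 CPM in other Mito-low cells (0.99). Nt5e, Icos and Itgae stood higher in members although their Mito-low levels exceeded the Mito-high ones in both groups of cells. Il18r1, a chain of the interleukin 18 receptor, had log2 ratios of 1.28 and 0.66, and Acvr2a, an activin receptor, of 1.28 and 1.31. Furin, a protease that processes pro-proteins including that of TGF-β, had log2 ratios of 1.05 and 1.10.

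Signalling and cytoskeletal genes completed the leading 15. Socs2, a feedback inhibitor of cytokine signalling, had 81.6 CPM in members and 32.2 CPM in other Mito-high cells (1.35, 1.14 to 1.54), and 115 CPM in members and 45.7 CPM in other Mito-low cells (1.34, 1.16 to 1.5), the evenest ratio of the group across libraries. Crmp1, a collapsin response mediator protein, had 47.1 CPM in members and 11.96 CPM in other Mito-high cells (1.99), and 33.4 CPM in members and 12.3 CPM in other Mito-low cells (1.45). Nebl, an actin-binding protein, had log2 ratios of 1.82 and 1.24. Timp2, an inhibitor of metalloproteases, had 109 CPM in members and 37.3 CPM in other Mito-high cells (1.56), and 153 CPM in members and 70.3 CPM in other Mito-low cells (1.13). Ust, a sulfotransferase, had log2 ratios of 1.40 and 1.17, Glb1, the lysosomal galactosidase, of 1.27 and 0.97, and Ckb, a creatine kinase, of 0.98 and 1.71. Timp2 inhibits proteases related to the product of Adam12, but the relatives of Adam12 were not raised alike: of 4 metalloproteases tested, Adam19 was higher in Mito-high members, at 0.81, and had 0.50 in Mito-low members, and Adam10, Adam17 and Adamts6 stayed within 1.5-fold in both.

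Among the remaining genes higher in both libraries were further regulators and signalling proteins. Grap2, an adaptor of the T cell receptor, had 412 CPM in members and 249 CPM in other Mito-high cells (0.73), and 648 CPM in members and 232 CPM in other Mito-low cells (1.48), the higher ratio in the Mito-low library. Cux1, a homeobox transcription factor, had 147 CPM in members and 87.0 CPM in other Mito-high cells (0.76), and 182 CPM in members and 72.3 CPM in other Mito-low cells (1.33). Pde4b, a phosphodiesterase that degrades cyclic AMP, had 334 CPM in members and 190 CPM in other Mito-high cells (0.82), and 322 CPM in members and 148 CPM in other Mito-low cells (1.12). Atp2b1, a calcium pump of the plasma membrane, had log2 ratios of 0.89 and 0.60, Cd55, an inhibitor of complement, of 0.87 and 0.99, and Lamc1, a laminin chain, of 1.49 and 0.59. Of 18 myosins and actin regulators tested, Myo3b not among them, 4 were higher in Mito-high members and 1 in Mito-low members, with medians of 0.19 and 0.06. Myo1f, a class I myosin of leukocytes, was higher in both, at 1.62 and 0.67.

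**Figure D3:**
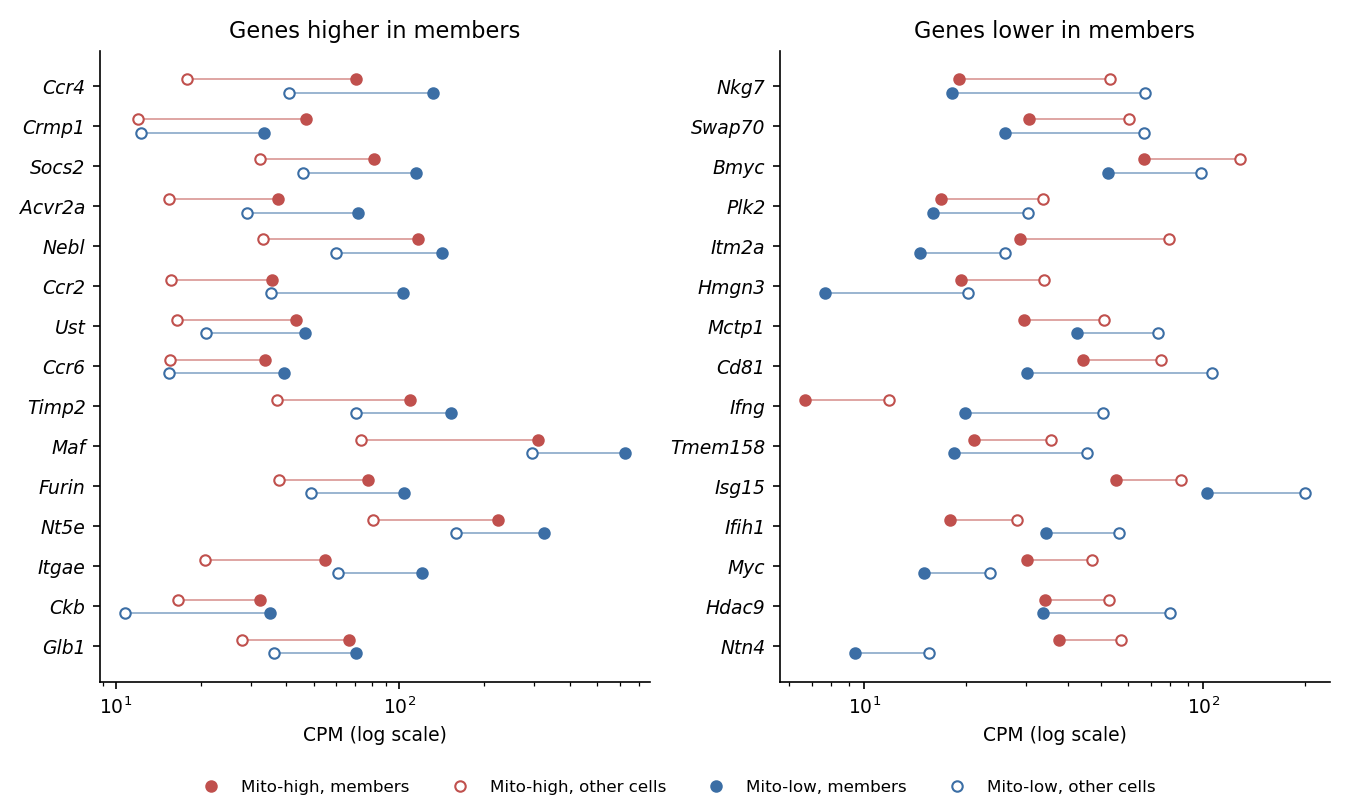
CPM (log scale) in members and in other cells of the Mito-high and Mito-low libraries, for the 15 genes with the largest ratios in both libraries on the left and the 15 with the smallest on the right. Filled points are members and open points other cells; Ccr4, for example, lies at 70.4 against 17.8 CPM in the Mito-high library, and at 131 against 41.0 CPM in the other.

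The interferon-induced GTPases related to Gbp2b had a median log2 ratio of 0.41 in Mito-high and 0.48 in Mito-low members, against 0.08 and 0.02 over all genes. Of 11 guanylate-binding proteins and immunity-related GTPases other than Gbp2b itself, 2 passed 1.5-fold upward in the Mito-high library and 3 in the Mito-low library, 2 of them in both, and 0 were lower. Gbp3 had 49.6 CPM in members and 22.0 CPM in other Mito-high cells (1.18), and 58.8 CPM in members and 39.0 CPM in other Mito-low cells (0.60), and Iigp1 had log2 ratios of 0.62 and 0.64. Other interferon genes did not follow. The 13 tested genes of the interferon gamma pathway had medians of 0.01 and -0.01, and the 13 type I interferon-induced genes of -0.22 and -0.24. Isg15, a ubiquitin-like protein induced by type I interferon, had 55.2 CPM in members and 86.0 CPM in other Mito-high cells (-0.63), and 103 CPM in members and 199 CPM in other Mito-low cells (-0.95).

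The genes lower in members of both libraries included cytotoxic, cytokine and activation genes. Nkg7, a granule protein of cytotoxic lymphocytes, had 19.0 CPM in members and 53.1 CPM in other Mito-high cells (-1.46, -1.90 to -1.10), and 18.1 CPM in members and 67.5 CPM in other Mito-low cells (-1.87, -2.32 to -1.51). The rule itself limits Ccl5 and Klrg1, which mark similar effector cells. The 3 tested helper cytokine and cytotoxic genes include Ccl5 of the rule. Their medians, -1.46 and -1.87, are the ratios of Nkg7 itself, so they are no separate evidence. Without the rule's limit on Ccl5, Il10 and Klrg1 these medians were -1.40 and -1.80. The part of the limit in the Nkg7 ratios was not tested further. Ifng, which encodes interferon gamma, had 6.68 CPM in members and 11.8 CPM in other Mito-high cells (-0.75), and 19.8 CPM in members and 50.7 CPM in other Mito-low cells (-1.33); among cells of 4000 to 8000 UMIs the Mito-high ratio was 0.30. Cd81, a tetraspanin, had 44.3 CPM in members and 75.2 CPM in other Mito-high cells (-0.75), and 30.3 CPM in members and 106 CPM in other Mito-low cells (-1.79). Swap70, a guanine nucleotide exchange protein that binds actin, had 30.6 CPM in members and 60.5 CPM in other Mito-high cells (-0.97), and 26.1 CPM in members and 66.8 CPM in other Mito-low cells (-1.34). Itm2a, a membrane protein of activated T cells, had log2 ratios of -1.44 and -0.80, and Myc, a transcription factor of growth, of -0.62 in both libraries.

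Further genes were among the 15 farthest below other cells. Bmyc, a relative of Myc, had 66.8 CPM in members and 129 CPM in other Mito-high cells (-0.94), and 52.5 CPM in members and 98.7 CPM in other Mito-low cells (-0.90). Plk2, a polo-like kinase, had 16.9 CPM in members and 33.7 CPM in other Mito-high cells (-0.97), and 16.0 CPM in members and 30.5 CPM in other Mito-low cells (-0.90). Hdac9, a histone deacetylase, had log2 ratios of -0.61 and -1.23, Hmgn3, a nucleosome-binding protein, of -0.79 and -1.34, and Ifih1, the RNA sensor MDA5, of -0.63 and -0.70.

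Early genes of T cell receptor signalling were lower in part. Of 22 such genes 4 were at least 1.5-fold lower and 1 higher in Mito-high members, and 3 were lower and 1 higher in Mito-low members, with medians of -0.24 and -0.23. Over all tested genes 1.11% were lower in Mito-high and 1.8% in Mito-low members. The medians depended on depth: they were -0.06 and -0.24 among cells of 4000 to 8000 UMIs, and -0.10 and -0.17 with other cells reweighted. With the rule applied after thinning they were 0.07 and -0.03. Nr4a1, an orphan nuclear receptor induced by the T cell receptor, had 205 CPM in members and 355 CPM in other Mito-high cells (-0.79), and 158 CPM in members and 232 CPM in other Mito-low cells (-0.55). Of 12 receptors and ligands of the tumour necrosis factor family tested, 1 was higher and 1 lower in Mito-high members, and 1 was higher and 3 lower in Mito-low members, with medians of 0.13 and -0.15. Tnfrsf9, or 4-1BB, had 192 CPM in members and 253 CPM in other Mito-high cells (-0.39), and 224 CPM in members and 489 CPM in other Mito-low cells (-1.12), and Tnfrsf4, or OX40, had log2 ratios of -0.49 and -0.85. Tnfsf11, the ligand RANKL, was the member of this family higher in both libraries, at 0.72 and 0.69.

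Other groups took opposite directions in the libraries, a difference that was not tested. Among 14 genes that mark resting T cells and their homing to lymph nodes, Mito-high members had 0 higher and 4 lower (median -0.28), and Mito-low members had 4 higher and 0 lower (median 0.42). Foxp1, a transcription factor of quiescence, had 1135 CPM in members and 997 CPM in other Mito-high cells (0.19), and 1030 CPM in members and 472 CPM in other Mito-low cells (1.12). Ccr7, the lymph node-homing receptor, had 345 CPM in members and 453 CPM in other Mito-high cells (-0.39), and 186 CPM in members and 128 CPM in other Mito-low cells (0.54). Treg suppressive and effector molecules showed the opposite order: of 19 genes 6 were higher and 0 lower in Mito-high members (median 0.13), and 3 were higher and 9 lower in Mito-low members (median -0.57). With none of Ccl5, Il10 and Klrg1 allowed in members, these 2 medians were -0.14 and -0.99, no longer opposite in sign. Without the limit on these genes they were 0.32 and -0.47. Over all tested genes, 4.2% were higher and 1.11% lower in Mito-high members, and 2.18% and 1.8% in Mito-low members. Penk, which encodes proenkephalin, had 28.1 CPM in members and 32.4 CPM in other Mito-high cells, but 47.6 CPM in members and 151 CPM in other Mito-low cells (-1.66). For both groups the median ratio between the libraries was nearer 0 in members than in other cells, at 0.42 and 1.21 for the resting genes and at -0.39 and -0.97 for the suppressive genes.

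S100 proteins, annexins and galectins, which accompany the effector state, were at least 1.5-fold higher for 6 of 14 in Mito-high members and for 1 of 14 in Mito-low members, with medians of 0.50 and 0.14. S100a4, a calcium-binding protein of motile cells, had 916 CPM in members and 323 CPM in other Mito-high cells (1.5), and 973 CPM in members and 649 CPM in other Mito-low cells (0.59). Not all members shared this. Those without any UMI of Gbp2b or Adam12 had 299 CPM in the Mito-high and 629 CPM in the Mito-low library, below other cells. Members with Adam12 and no Gbp2b had 1617 and 1274.5 CPM, and those with Gbp2b and no Adam12 had 543 and 846 CPM. Genes of energy metabolism differed little. Of 13 mitochondrially encoded genes, 39 nuclear genes of oxidative phosphorylation and 15 of glycolysis, 0 passed 1.5-fold between members and other cells in either library, with medians between -0.09 and 0.12. Of 10 genes of copper transport, copper chaperones and metallothioneins, 0 passed it in Mito-high members, and Mt1 alone did in Mito-low members. Mt1, a metallothionein that binds zinc and copper, had 25.7 CPM in members and 22.2 CPM in other Mito-high cells (0.23), and 16.0 CPM in members and 54.3 CPM in other Mito-low cells (-1.73). Slc31a1, the copper importer, and Atp7a, the copper exporter, had 13.6 to 16.7 CPM in members of both libraries and log2 ratios between -0.20 and 0.34.

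Levels changed in steps with the number of rule genes detected. Among cells with at most 1 of Ccl5, Il10 and Klrg1, the steps 0, 1, 2 and 3 or 4 held 9768, 1986, 247 and 45 Mito-high cells and 6812, 2860, 394 and 80 Mito-low cells. Ccr4 stood at 13.3, 33.0, 63.4 and 111 CPM along these steps in the Mito-high library, and at 37.2, 51.8, 122 and 178 CPM in the Mito-low library. Maf stood at 58.5, 112, 277 and 490 CPM in Mito-high cells, and at 252, 326, 574 and 866 CPM in Mito-low cells. Both genes were higher at every step of both libraries, and cells just outside the threshold, with 1 rule gene, lay between those with 0 and 2. Ikzf2 stood at 1282, 1473, 1184 and 544 CPM in the Mito-high library, and at 1868, 1900.2, 1232 and 822 CPM in the Mito-low library, lower from 2 rule genes on. Foxp3 had 32.1 and 50.7 CPM at the last 2 steps of the Mito-high library. It had 49.6 and 44.1 CPM at those of the Mito-low library, a smaller fall than that of Ikzf2. Median depth differed less along the steps, at 5868.5 to 7807 UMIs in Mito-high and 4398 to 5449 UMIs in Mito-low cells.

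**Figure D4:**
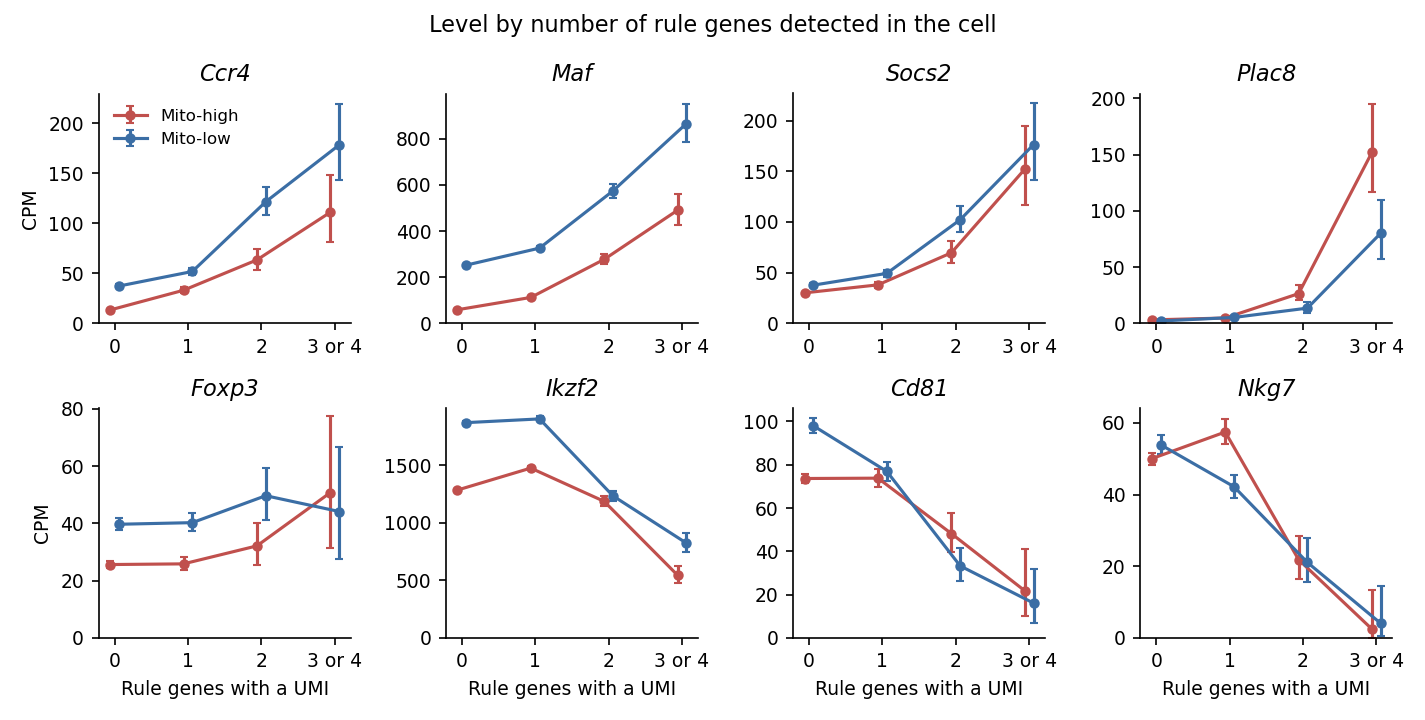
CPM (vertical axis) by the number of the 4 rule genes with a UMI in the cell (horizontal axis) for 8 genes, in Mito-high and Mito-low cells with at most 1 of Ccl5, Il10 and Klrg1. Bars are 95% exact Poisson intervals of the summed UMIs. Ccr4, Maf, Socs2 and Plac8 climb with the number of rule genes, and Cd81, Nkg7 and Ikzf2 descend at 2 or more. At the last step Foxp3 rises in Mito-high cells and falls in Mito-low cells, by less than Ikzf2.

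Depth of the cells moved with membership, and the leading ratios were recomputed in a narrower range of depth and with the other cells reweighted to the depth of members. Among cells of 4000 to 8000 UMIs the log2 ratio of members over other cells was 2.43 for Mito-high and 1.83 for Mito-low cells for Ccr4, 2.55 and 1.32 for Maf, and 2.08 and 1.47 for Socs2. For Nkg7 it was -0.81 and -2.06, and for Cd81 -0.86 and -2.04. With the other cells reweighted, the ratios were 1.92 and 1.72 for Ccr4, 2.05 and 1.10 for Maf, 1.41 and 1.34 for Socs2, -1.64 and -1.96 for Nkg7, and -0.81 and -1.80 for Cd81.

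Members chosen through Gbp2b differed from members chosen through Adam12. Of the members, 103 Mito-high and 190 Mito-low cells had Adam12 without Gbp2b, 53 and 102 had Gbp2b without Adam12, and 21 and 38 had both. Of 5518 genes at 20 CPM or more in these cells, 138 were at least 1.5-fold higher with Adam12 than with Gbp2b in both libraries, or 2.5%, and 52 were lower, or 0.942%. The balance depended on the processing: 29 were higher and 130 lower with a pseudo-count of 10, 221 and 442 with the rule applied after thinning, and 128 and 124 with totals that left out mitochondrial, ribosomal and antigen receptor genes. These 4 sums are small, between 470007 and 1169087 UMIs each, and the genes named were the 12 farthest each way and others chosen after their values were seen. Tnfrsf9 had 266 CPM with Adam12 and 72.3 CPM with Gbp2b in Mito-high members (1.84), and 281 CPM and 84.8 CPM in Mito-low members (1.71). Rora, which encodes a nuclear receptor, had 674 CPM with Adam12 and 209 CPM with Gbp2b in Mito-high members (1.68), and 687 CPM and 251 CPM in Mito-low members (1.45). Ikzf2 had 1267 CPM with Adam12 and 604 CPM with Gbp2b in Mito-high members (1.06), and 1357 CPM and 602 CPM in Mito-low members (1.17). The lowest levels of Ikzf2 were thus found in members with Gbp2b, and members with Adam12 alone stood at 1267 CPM, against 1333 CPM in other Mito-high cells, and at 1357 CPM, against 1936 CPM in other Mito-low cells.

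Other genes higher with Adam12 were S100a6, Tox2 and Nrn1. S100a6, a calcium-binding protein, had 1293 CPM with Adam12 and 457 CPM with Gbp2b in Mito-high members (1.49), and 863 CPM and 568 CPM in Mito-low members (0.60). Tox2, a transcription factor of the TOX family, had log2 ratios of 1.40 and 1.37, and Nrn1, the surface protein neuritin, of 2.10 and 2.47. In members with Gbp2b these rest on 9 Mito-high and 14 Mito-low UMIs of Tox2, and on 6 and 1 of Nrn1. The intervals for Nrn1 were 1.10 to 3.79 and 0.77 to 8.78. Cells with a UMI of at least 2 of 7 cell cycle genes were 25.2% of the Mito-high members with Adam12 and 11.3% of those with Gbp2b, and 0.526% and 0% of the Mito-low ones. Median depth was 8616 UMIs with Adam12 and 7077 UMIs with Gbp2b in Mito-high members, and 5198 UMIs and 5083 UMIs in Mito-low members. The part of cycling and depth in these ratios was not tested.

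The Gbp2b members were higher in other genes. Iigp1, an interferon-induced GTPase like Gbp2b, had 31.4 CPM with Adam12 and 74.5 CPM with Gbp2b in Mito-high members (-1.25), and 47.9 CPM and 114 CPM in Mito-low members (-1.24). Foxp1 had 857 CPM with Adam12 and 1530 CPM with Gbp2b in Mito-high members (-0.84), and 779 CPM and 1485 CPM in Mito-low members (-0.93). Itga6, a laminin-binding integrin chain, and Ccr7 had log2 ratios of -1.27 and -0.91 in Mito-high and of -0.92 and -1.18 in Mito-low members. Plac8 had 41.5 CPM with Adam12 and 147 CPM with Gbp2b in Mito-high members (-1.81), and 3.42 CPM and 49.2 CPM in Mito-low members (-3.57). Actn1, an actin-binding protein, had 42.5 CPM with Adam12 and 97.9 CPM with Gbp2b in Mito-high members (-1.20), and 28.2 CPM and 72.9 CPM in Mito-low members (-1.36). Maf and Ccr4 stayed within 1.5-fold between these cells: their log2 ratios were 0.08 and -0.31 in Mito-high and -0.11 and 0.19 in Mito-low members. Members with Myo3b and Prg4 only were the least raised in Maf, at 212 CPM in the Mito-high ones and 483 CPM in the Mito-low ones, above the 73.2 and 294 CPM of other cells.

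**Figure D5:**
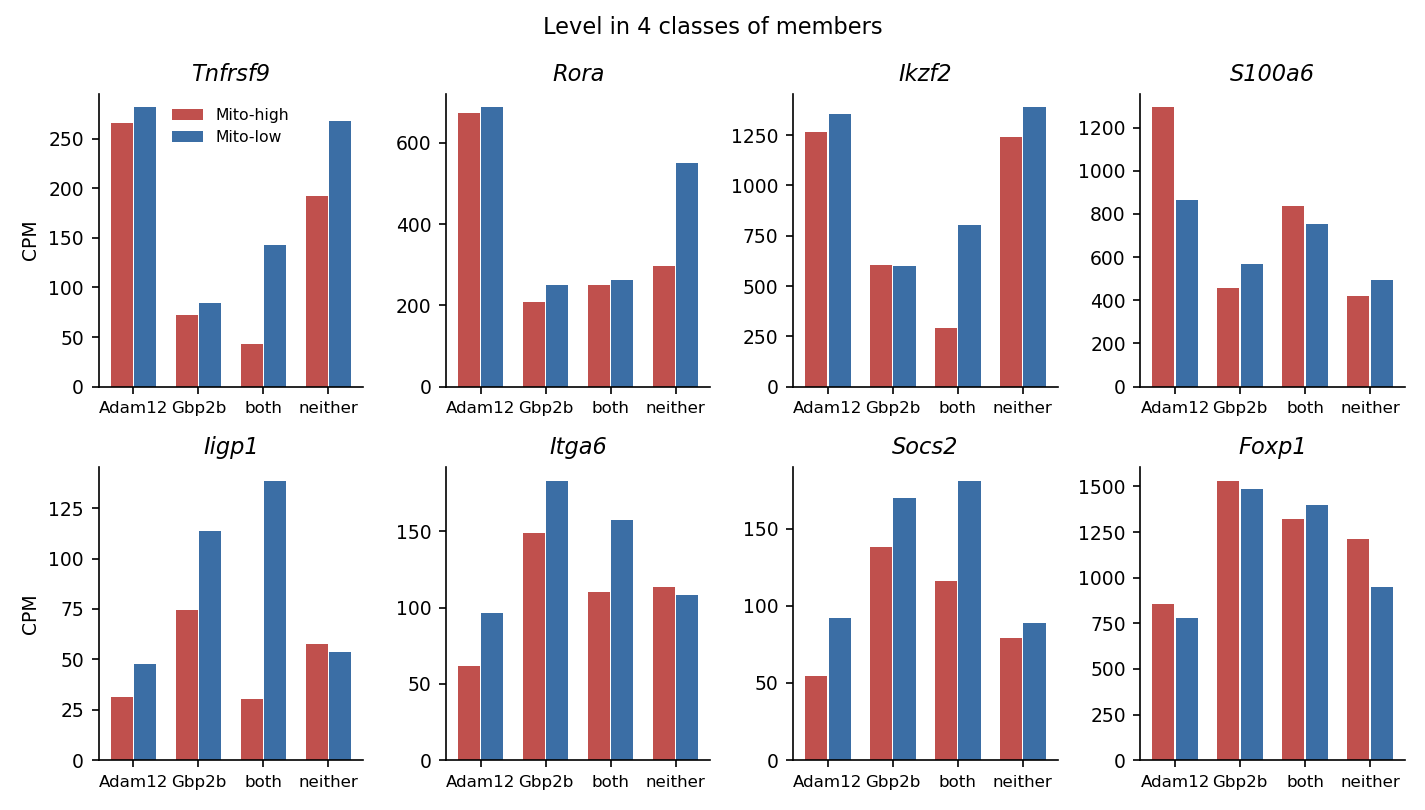
CPM (vertical axis) of 8 genes in members with Adam12 and no Gbp2b (Adam12), with Gbp2b and no Adam12 (Gbp2b), with both, and with neither, for Mito-high and Mito-low cells. Tnfrsf9, Rora and Ikzf2 are higher with Adam12 than with Gbp2b in both libraries, and Iigp1, Itga6, Socs2 and Foxp1 lower.

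Mito-high members were then set against Mito-low members. Mito-high members had 295 of the 5504 genes at least 1.5-fold higher, or 5.36%, and 458 lower, or 8.32%, and the median log2 ratio was -0.10. Other cells had 176 genes higher, or 3.2%, and 546 lower, or 9.92%, with a median of -0.14. The split depended on the scaling: with TMM factors, which moved the median ratio by 0.12, 484 genes were higher and 257 lower in Mito-high members. The ratios given below are without it.

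Genes of the cell cycle led the higher genes. Mki67, a marker of proliferating cells, had 87.3 CPM in Mito-high members, against 12.5 CPM in Mito-low members (2.77, 2.29 to 3.35). Birc5, which encodes survivin of the mitotic spindle, had 119 CPM in Mito-high members, against 0.696 CPM in Mito-low members (6.84, 5.56 to 10.47), the lower value from 2 UMIs. Pclaf, a factor bound to the DNA replication clamp, had 166 CPM in Mito-high members, against 2.43 CPM in Mito-low members (5.90). Ube2c, a ubiquitin-conjugating enzyme of mitosis, had 96.7 CPM in Mito-high members, against 1.04 CPM in Mito-low members (6.13), and Stmn1, a tubulin-binding protein of dividing cells, 303 CPM against 14.3 CPM (4.38). Of 12 tested cell cycle genes 10 were higher in Mito-high members, with a median of 2.63, and in other cells 9 were, with a median of 1.43. Cells with a UMI of at least 2 of 7 cell cycle genes were 18.2% of Mito-high members and 0.422% of Mito-low members, against 6.48% and 1.47% of other cells. Over all cells, Mito-high members exceeded other Mito-high cells in 8 of these 12 genes (median 1.17), and Mito-low members exceeded other Mito-low cells in 0.

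Depth moved with this difference, and its part was not tested beyond the following values. Cells of 12000 UMIs or more were 25.7% of Mito-high members and 5.27% of Mito-low members, against 10.96% and 2.47% of other cells. Within 4000 to 8000 UMIs the median of the cell cycle genes between the libraries was -0.53 in members, with Mki67 at -0.97 and Pclaf at -1.36, so that the direction turned. Without the cells counted as cycling it was 0.21. Within the same window the cell cycle genes had medians of 0.07 and 0.15 for members over other cells in the Mito-high and Mito-low libraries.

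Several genes outside the cell cycle were lower in Mito-high than in Mito-low members. Ly6a, the surface antigen Sca-1 induced by interferon, had 72.1 CPM in Mito-high members, against 239 CPM in Mito-low members (-1.72), and a ratio of -1.61 in other cells. Frmd5, a FERM domain protein, had 9.15 CPM in Mito-high members, against 50.1 CPM in Mito-low members (-2.41; other cells -3.27), and Abcb1a, a drug efflux pump, 20.1 and 102 CPM (-2.33; other cells -2.79). Tigit, an inhibitory receptor of activated Treg cells, had log2 ratios of -1.73 in members and -2.45 in other cells. Ccr4 and Maf were lower in Mito-high members, at -0.90 and -1.02, and in other Mito-high cells, at -1.20 and -2.01. Ccr2 was too, at -1.53 in members and -1.17 in other cells. Serpina3g, a protease inhibitor of activated T cells, had 20.8 CPM in Mito-high members, against 58.8 CPM in Mito-low members (-1.49; other cells -2.44). Among genes higher in Mito-high members and outside the cell cycle, Igfbp4, a binding protein of insulin-like growth factors, had 50.0 CPM, against 7.65 CPM in Mito-low members (2.65; other cells 3.77), and the homing receptor Ccr7 had 0.89, with 1.82 in other cells. Gdpd3, a lysophospholipase, was farther apart in members, with 5.98 CPM in Mito-high members, against 26.4 CPM in Mito-low members (-2.08), against -0.74 in other cells; the difference between these ratios was not tested.

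Transcripts that follow RNA quality differed between the libraries in both groups of cells. Malat1, a nuclear RNA, had 8552 CPM in Mito-high members, against 20236 CPM in Mito-low members (-1.24), against a ratio of -0.90 in other cells, and Gm42418, a ribosomal RNA-like transcript, had ratios of -1.85 in members and -1.44 in other cells. Of 8 such transcripts 6 were lower in Mito-high members (median -1.12) and 6 in other Mito-high cells (median -0.88). Between members and other cells of 1 library, 0 of these 8 passed 1.5-fold, with medians of -0.16 and 0.10. Their part in the differences between the libraries was not tested.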

How the data were processed

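Single-cell RNA counts were analysed for 1 Mito-high and 1 Mito-low library of sorted mouse Treg cells. The authors deposited 1 filtered matrix a library of UMI counts that were not normalized, whole numbers over 32285 features, per the file headers. The submitters' processing notes name Cell Ranger 7.1.0, Seurat 4.3.0.1 and mm10. Whether ambient RNA or doublets were removed is not given in the sources used here.

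Barcodes with at least 500 genes and at most 20% mt UMIs were kept, and no doublet caller was run. Counts were summed over members and over other cells of each library and scaled to CPM. For log2 ratios a pseudo-count of 1 was added to each summed UMI count before scaling. An added count weighs more in the smaller sums of members than in those of other cells. Genes with a mean over the 4 sums of at least 20 CPM were compared, and 1.5-fold was the size reported as higher or lower. With 1 library per group no model was fitted. Intervals are 95% exact Clopper-Pearson for shares, exact Poisson for sums and conditional binomial for ratios, and the limit for a count of 0 is 3 counts of the total. UMIs and cells of 1 library are not replicates of a condition, so intervals cover counting error only. Python 3.11.15, numpy 2.4.6, scipy 1.17.1, pandas 2.3.3, matplotlib 3.10.9, R 4.3.3 and edgeR 4.0.16 (TMM factors only) were used. The computation was tested on simulated data.

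Genes named were the 15 largest and 15 smallest ratios by the library nearer 0, the 10 largest and 10 smallest between the libraries, the 5 largest differences each way, up to 4 for each of 42 gene lists, and 32 set genes. The genes below 20 CPM (15 UMIs in the members of each library and 4-fold in both) and the 12 genes each way between members with Adam12 and with Gbp2b were chosen after their values were seen. The members and all lists were chosen with earlier results of these data known. In all, 17 alternative settings were planned, and 1, without cycling cells, was chosen after seeing the data. Results for a few genes are not reported here.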

Additional observations from a re-analysis of the deposited data

Results flagged for a closer look

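In 9 genes members passed 1.5-fold over other cells in one direction in the Mito-high library and in the opposite direction in the Mito-low library; the difference between the libraries was not tested. For 5 of them members were higher in the Mito-high library and lower in the Mito-low library. Among these, the log2 ratio of members over other cells was larger by 3.1 in the Mito-high library for Ube2c, a ubiquitin-conjugating enzyme of mitosis, and by 3.031 for Birc5, the mitotic protein survivin. The Mito-low members held 3 UMIs of Ube2c and 2 of Birc5. With a pseudo-count of 10 the Mito-low ratios turned to 0.24 for Ube2c and 0.31 for Birc5. With the rule applied after thinning they were 0.33 and 1.01, and the Mito-high ratio of Ube2c was -0.47. Lig1, the ligase that joins DNA fragments during replication, had 63.7 CPM in members and 37.6 CPM in other Mito-high cells, and 10.4 CPM in members and 18.5 CPM in other Mito-low cells. Tent5a and Ttc39c had the same order.

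For 4 genes members were lower in the Mito-high library and higher in the Mito-low library. Ly6c1, a surface antigen of memory T cells, had 12.3 CPM in members and 37.4 CPM in other Mito-high cells, and 24.7 CPM in members and 10.3 CPM in other Mito-low cells, a difference of log2 ratios of -2.835. Klf7, a Krüppel-like transcription factor, had 42.2 CPM in members and 65.2 CPM in other Mito-high cells, and 54.6 CPM in members and 29.5 CPM in other Mito-low cells, a difference of -1.512. The differences were -1.596 for Nedd4l, a ubiquitin ligase, and -1.466 for Tubb2a, a beta tubulin.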

How the results depend on the processing

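No paired analysis was possible because each group is 1 library and the labels give no replicate numbers. The share of members, 2.39% in the Mito-high library, was 0.368% with at least 3 of the 4 genes, 1.24% with at least 2 of Gbp2b, Adam12 and Myo3b, 1.91% with none of Ccl5, Il10 and Klrg1, 0.604% thinned to 2000 UMIs, 1.90% among cells of 4000 to 8000 UMIs and 2.10% without cycling cells. In the Mito-low library, 4.06% as reported, it was 0.685%, 2.58%, 2.63%, 1.48% and 4.45% under the first 5 of these, and 4.48% without the limit on Ccl5, Il10 and Klrg1. The Mito-low share was the larger under each of these settings.

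The 57 genes higher and 17 lower in both libraries became 213 and 77 with 3 of the 4 genes, 338 and 53 thinned, 103 and 31 among cells of 4000 to 8000 UMIs, 31 and 28 with TMM, 30 and 5 from 50 CPM up, 9330 and 153 with no filter on expression and 87 and 7 with a pseudo-count of 10, and 26 were lower without Prg4 in the rule. Of the 57, 46 were shared with the set found with 3 of the 4 genes and 52 with that among cells of 4000 to 8000 UMIs. The 295 genes higher and 458 lower in Mito-high than in Mito-low members became 721 and 855 with 3 of the 4 genes, 975 and 861 thinned, 484 and 257 with TMM, 450 and 273 with the median ratio set to 0, 139 and 223 from 50 CPM up and 2997 and 3786 with no filter. Without cycling cells 131 were higher, and with a total free of mt-, ribosomal and antigen receptor genes 296 were lower. The 138 genes higher and 52 lower with Adam12 than with Gbp2b became 221 and 442 thinned, 243 and 141 among cells of 4000 to 8000 UMIs, 58 and 15 from 50 CPM up, 567 and 18550 with no filter and 29 and 130 with a pseudo-count of 10, with 124 lower on that total and 87 lower with none of Ccl5, Il10 and Klrg1. Fewer or more genes enter by construction where the filter changes, and otherwise the cause was not tested.

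Of 1820 medians of gene lists, 1363 stayed the same, 455 moved and 2 changed sign from beyond 1.5-fold. Those 2 were of the cell cycle genes, to -0.39 for members over other Mito-high cells when thinned and to -0.53 between members at 4000 to 8000 UMIs. Most medians were reported within 1.5-fold, so their changes of sign are not in that count. The suppressive molecules, for example, went from 0.13 to -0.14 in Mito-high members with none of Ccl5, Il10 and Klrg1. Of 4736 values for single genes and for members with Adam12 against Gbp2b, 3853 stayed the same, and 33 changed sign from beyond 1.5-fold. The same means within the counting interval of the reported ratio, within 1.5-fold for a count of genes, or within a small fixed distance for a list median. Changes of the expression filter could not move these ratios or the list medians, which stayed the same by construction. For members over other Mito-high cells, thinning turned Mctp1 (0.56), Ifng (1.71), Ifih1 (0.11), Egr1 (0.012) and Ube2c (-0.47), Ifng was 0.30 at 4000 to 8000 UMIs, and Isg15 was 0.19 with 3 of the 4 genes. For members over other Mito-low cells, thinning turned Nedd4l (-0.24), Ube2c (0.33) and Birc5 (1.01), a pseudo-count of 10 turned Ube2c (0.24) and Birc5 (0.31), and Birc5 was 1.42 without cycling cells. Between members, 4000 to 8000 UMIs turned Pclaf (-1.36), Hist1h1b (-1.45) and Mki67 (-0.97), leaving out cycling cells turned Hist1h1b (-0.56), Hist1h2ae (-0.10) and Mki67 (-1.03), and thinning turned Hist1h2ae (-0.81), Igfbp4 (-0.14) and Ifng (0.70). Between members with Adam12 and with Gbp2b, thinning turned Tshz2 (-0.26), Pclaf (-1.26), Plcb4 (-0.53), Cxcl10 (-1.68), Ecm1 (-0.68) and Pou6f1 (0.32) in Mito-high and Pclaf (-0.57) and Ecm1 (-1.16) in Mito-low members, 4000 to 8000 UMIs turned Pclaf (-0.45) and Pou6f1 (0.55) in Mito-high members, and a pseudo-count of 10 turned Pclaf (-0.40) in Mito-low members. Ccr4 lay between 1.87 and 2.88 in the Mito-high library and 1.59 and 2.04 in the Mito-low library over all settings, and Maf between 1.92 and 3.08 and between 0.94 and 1.51. With 3 of the 4 genes or thinned, members were few, and depth limits genes below 20 CPM.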

Other observations

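Further genes below 20 CPM were at least 4-fold higher in members of both libraries, and were chosen after their values were seen. Dsp, which encodes the junction protein desmoplakin, had 6.33 CPM in members and 0.494 CPM in other Mito-high cells (log2 ratio 3.73), and 10.1 CPM in members and 0.624 CPM in other Mito-low cells (4.02). Aqp3, a channel for water and glycerol, had 14.8 CPM in members and 3.48 CPM in other Mito-high cells (2.12), and 9.04 CPM in members and 2.15 CPM in other Mito-low cells (2.11). Fam20a, a secreted pseudokinase, was the most widespread, with a UMI in 17.5% of members and 3.47% of other Mito-high cells and in 15.4% of members and 3.53% of other Mito-low cells. Auts2 had log2 ratios of 2.88 and 2.55, and Cited4, a transcriptional coactivator, of 3.10 and 2.74.

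Genes of the circadian clock were among those higher in members. Nr1d1, which encodes the clock repressor REV-ERB alpha, had 5.98 CPM in members and 0.724 CPM in other Mito-high cells (3.11), and 12.5 CPM in members and 2.25 CPM in other Mito-low cells (2.50). Cry1, a cryptochrome of the clock, had 49.3 CPM in members and 30.8 CPM in other Mito-high cells (0.69), and 53.9 CPM in members and 32.2 CPM in other Mito-low cells (0.75). No list of clock genes was set, so that these are values of single genes only.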
